A study of Mus musculus with 2 samples.

Results

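The genes described here let renal cells live in a salty, urea-rich interstitium. They are 8 in number and were taken by name: Nfat5, Akr1b3, Slc5a3, Slc6a12, Slc6a6, Slc38a2, Slc14a1 and Slc14a2. Their members on the array are the probes that are not controls and carry one of these gene names, which gave 20 of the 41173 probes measured and 8 of the 30038 gene names. RNA came from mouse kidney collecting duct cells, purified with the lectin DBA and magnetic beads, and was read on 1 single-colour array for each of 2 genotypes. The first is wild type (WT), for which the labels give no transgene and no floxed allele. The other, Gata2 CKO, has the genotype Gata2flox/-::Pax8-rtTA::Tet-Cre, in which Pax8-rtTA limits doxycycline-induced Cre to renal tubule cells while the null Gata2 allele is carried by every cell. All mice were 8 weeks old, of mixed sex, and the labels describe 4 weeks of doxycycline starting at 4 weeks of age in the same words for both groups. The study's design names 3 mice per genotype and the labels do not say whether their RNA was pooled, but with 1 array each there is no replicate check, so no test was possible and no p-value is given.

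Cells of the renal medulla balance the high salt outside by storing small organic osmolytes: sorbitol, myo-inositol, betaine, taurine and amino acids. The transcription factor NFAT5, also called TonEBP, is activated by hypertonicity and raises the genes that make sorbitol or take up the other osmolytes. Urea, the other main solute of the medulla, crosses membranes through the urea transporters, SLC14A1 (UT-B) in vasa recta and red blood cells and SLC14A2 (UT-A) in the inner medullary collecting duct and the thin limbs.

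The genes did not move as a group. Slc6a12, the betaine transporter, was higher in the CKO cells, and Slc6a6, the taurine transporter, was lower, each by more than 2-fold. Akr1b3, the aldose reductase that makes sorbitol, and Slc5a3, the myo-inositol transporter, were higher by less than 2-fold. The urea transporter gene Slc14a1 was lower by less than 2-fold, while its neighbour Slc14a2 differed little. Nfat5 was higher by an amount that depended on the probe, and the amino acid transporter gene Slc38a2 was close to the WT level at most of its probes.

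Each difference is the log2 level in CKO less that in WT, with each array's processed signal first divided by its own 75th percentile, which was 315 for WT and 250.4 for CKO. The number after ± is the error the scanner software gives to the spots of both arrays. It covers those spots and not mice, purification or labelling. This error is reported by the software and was not measured from repeated spots. It ran from 0.204 to 0.322 over the member probes and was near 0.20 for all bright ones. For 130 probes with repeated spots and signals in the members' range, the measured standard deviation of the difference had a median of 0.067. Over the series, 64.1% and 62.4% of the spots that are not controls were well above background on the WT and CKO arrays, 0 were saturated, and both arrays were on the same slide and scan. Gata2 itself was at −0.37 and −0.32 by its probes, and these lie far along its transcript and may be outside the deleted part, in which case they check nothing about the labels. The cells carried the defining principal cell markers, with Aqp2 at signals of 41848 and 28085 on the WT and CKO arrays, and the intercalated cell marker Slc4a1 at 8129 and 12190. Setting the spike-in control transcripts equal instead lowered the median of all genes by 0.54. The directions given here are thus only relative to the bulk of genes. On the spike-in scale the 3 Slc14a2 probes, 2 of the Nfat5 probes and 1 of Slc38a2 changed sign. All 20 member probes were well above background on both arrays, so every member passed the filter on dim probes and none of the differences is a bound.

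The probes are 60 bases long. Shown here are those of the members described first whose bases hold an open reading frame in at least 1 frame and which the files place well inside their transcript, so that a reader can see what each measurement reads. The exon or UTR that a probe falls in was not analysed here, and the coordinates are those of the files (mm9).
Slc6a6, chr6:91699793-91700295, + strand: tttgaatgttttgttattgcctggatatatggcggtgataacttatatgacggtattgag
Akr1b3, chr6:34256598-34259013, − strand: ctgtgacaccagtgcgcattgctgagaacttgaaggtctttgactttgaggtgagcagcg
Slc5a3, chr16:92079366-92079425, + strand: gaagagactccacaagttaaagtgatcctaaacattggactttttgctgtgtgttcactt
Nfat5, chr8:109875407-109875466, + strand: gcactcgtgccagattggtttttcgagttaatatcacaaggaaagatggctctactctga
Nfat5, chr8:109893395-109894320, + strand: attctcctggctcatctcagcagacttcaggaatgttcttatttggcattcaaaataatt
The Slc6a6 and Akr1b3 probes and the second Nfat5 probe span 503, 2416 and 926 bases of the genome, more than their own 60, so each reads across at least 1 exon junction.

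**Figure D1:**
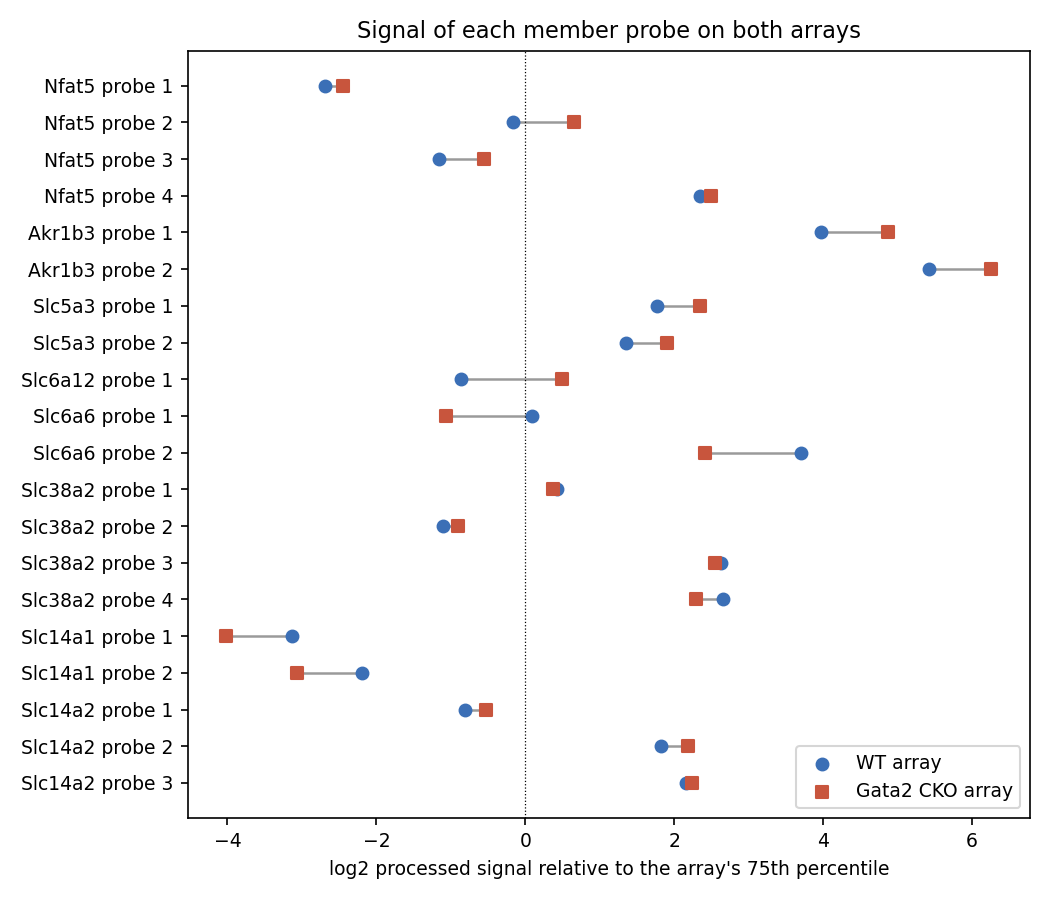
Signal of each of the 20 member probes on the WT array (circles) and the Gata2 CKO array (squares), as log2 of the processed signal relative to the array's 75th percentile (horizontal axis); probes of a gene are numbered by the transcript position the files give. The CKO square lies clearly right of the WT circle for Akr1b3, Slc5a3 and Slc6a12 and clearly left of it for Slc6a6 and Slc14a1, while those of Slc38a2 and Slc14a2 lie close together.

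NFAT5 is the regulator of the set, and its gene was read by 4 probes that gave different answers. The probe at transcript position 1632, the first of the Nfat5 sequences printed above, had a signal of 282 in WT and 395 in CKO, a difference of 0.82 ± 0.20 or 1.76-fold. The probe at position 4722 had signals of 142 and 170.3, a difference of 0.60 ± 0.21. The probe at position 13119, nearest the transcript's end, was the brightest of the Nfat5 probes, at 1599 and 1407, and its difference was 0.15 ± 0.20. All 4 probes were on the higher side in the CKO cells after scaling, but the 2 with the larger differences were not the bright one. The remaining Nfat5 probe was designed from a cDNA clone, lies at chr8:109886759-109886818 between the others, was dim at 48.9 and 46.1, and gave 0.24 ± 0.24. The 4 values thus spread over 0.67, more than the spot error of any of them, and the level of Nfat5 RNA in the CKO cells cannot be given as 1 number from these probes. Upstream of them, 36.8 to 40.9 kb before their mean position, 3 probes of transcripts that the files name only by Ensembl number were at 0.66, 0.78 and 0.94, and Nqo1, the gene 22.7 kb beyond, was at 0.78. They were singled out after their values were seen, and the 40 measured probes within 1 Mb had a median of 0.13. A probe with no gene name 52.5 kb before was at 0.18, and Nob1, 50.7 kb beyond, was at 0.03. Whether the transcripts named by Ensembl number belong to Nfat5 was not analysed here.

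Akr1b3 encodes the aldose reductase that turns glucose into sorbitol, and it was the brightest member. Its probe at position 1238 had signals of 13501 in WT and 19194 in CKO, a difference of 0.84 ± 0.20 or 1.79-fold. The probe printed above, at position 874, had signals of 4921 and 7302 and a difference of 0.90 ± 0.20, or 1.87-fold. The raw signal was higher on the CKO array at both probes, although that array was the dimmer of the pair at its 75th percentile. Both differences lay above 97.5% or more of the 26616 probes with a difference in this comparison. The first of these probes is placed on chr6:34253930-34253982 and only 53 of its bases are covered by that placement, and the reference table lists a pseudogene whose synonym is Akr1b3p, so signal from that copy could not be told from the gene's own.

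Slc5a3 encodes SMIT1, which brings myo-inositol into the cell with sodium. Its probe at position 2560, printed above, had signals of 1069 and 1270, a difference of 0.58 ± 0.20. Its probe at position 10475 had signals of 802 and 938, a difference of 0.56 ± 0.20. The probes lie 7915 bases apart in the transcript and differed by 0.022, far within the spot error, and both raw signals were higher on the CKO array.

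Slc6a12 encodes BGT1, the betaine transporter, which is among the best known targets of NFAT5, and it had the largest rise of the members. Its only probe, at chr6:121315541-121315600, had a signal of 173 in WT and 353 in CKO. The difference was 1.36 ± 0.21, or 2.57-fold, and rank 105 from the top among 18693 genes with a difference. As the gene has 1 probe and 1 spot on each array, no other measurement on these arrays bears on it. It was between 1.08 and 1.36 under every alternative tried except one, and 0.82, short of 2-fold, when spike-in control transcripts were set equal.

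Slc6a6 encodes the taurine transporter TauT and had the largest fall. Its probe at position 5731, at chr6:91708620-91708679, had a signal of 4079 in WT and 1336 in CKO. The difference was −1.28 ± 0.20, 41.2% of the WT level, and rank 347 from the bottom among the 18693 genes. The probe across an exon junction printed above, 4015 bases nearer the transcript's start, had signals of 336 and 120 and a difference of −1.16 ± 0.21. Both probes thus showed a fall of more than 2-fold, 0.12 apart. With normexp background correction the dimmer probe gave −0.87 and fell short of 2-fold, and the brighter one stayed past it.

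The opposite directions of these solute carriers exceeded the spot error. The difference of Slc6a12 was 2.64 ± 0.29 above that of Slc6a6. These genes have the largest rise and the largest fall of the members, so the gap restates those values, and its error covers spots only. The difference of Akr1b3 was 0.26 ± 0.29 above that of Slc5a3, less than its error.

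Slc38a2 encodes SNAT2, which carries neutral amino acids such as glutamine and rises in hypertonic cells. Its probes at positions 2255 and 3900 of the reference transcript had signals of 1948 and 1461, and of 1986 and 1223, with differences of −0.08 ± 0.20 and −0.37 ± 0.20. Another pair of probes, designed from a cDNA clone and placed at chr15:96528513-96528572 and chr15:96527422-96527481, gave −0.06 ± 0.20 and 0.20 ± 0.21. Of its 4 probes, 1 was lower by more than the spot error and the other three were within it.

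The urea transporter genes lie next to each other on chromosome 18, their nearest probes 44.4 kb apart. Slc14a1 was dim and lower in the CKO cells. Its probe at chr18:78298526-78298585 had signals of 35.8 in WT and 15.5 in CKO, a difference of −0.88 ± 0.32. Its probe at chr18:78296986-78297045 had signals of 68.7 and 29.9, a difference of −0.87 ± 0.24. The probes agreed to 0.0044, and both put the CKO level at 54.5% and 54.7% of WT, but both were among the dimmer member probes. With normexp, whose offset shrinks differences of dim probes, they gave −0.04 and −0.31, so the size of this fall rests on how the background was treated.

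Slc14a2 was closer to its WT level than Slc14a1. The files assign its probes to different transcripts, which matters because the gene makes several UT-A proteins from separate promoters and ends. The probes at chr18:78388974-78392475 and chr18:78380016-78380075 are assigned to 1 pair of RefSeq transcripts and the probe at chr18:78342911-78342970 to another. The first had signals of 180.0 and 173 and a difference of 0.27 ± 0.21, the second 1109 and 1137 and a difference of 0.37 ± 0.20. The third had signals of 1410 and 1177 and a difference of 0.07 ± 0.20. Of its 3 differences 2 exceeded the spot error and 0 reached 2-fold. The brightest probe of Slc14a2 was 0.94 ± 0.31 above that of Slc14a1 in its difference. With normexp these probes were at 0.02 and −0.31, so the size of this gap also rests on how the background was treated.

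**Figure D2:**
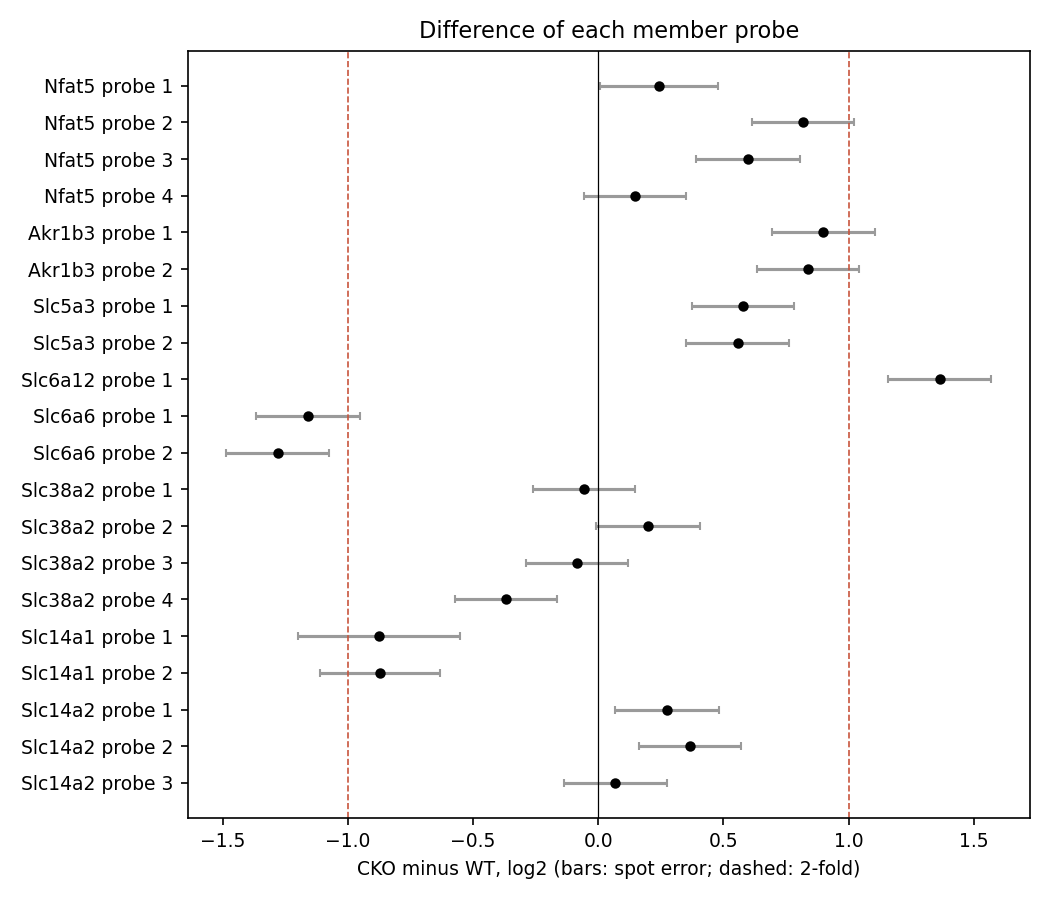
Difference CKO minus WT on the log2 scale (horizontal axis) of each member probe, with bars of 1 spot error on either side and dashed lines at 2-fold. Slc6a12 at 1.36 and the Slc6a6 probes at −1.28 and −1.16 lie past the lines, the Akr1b3, Slc5a3 and Slc14a1 probes between 0 and the lines.

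Counted by probe, 13 of the 20 differences were above 0 and 7 below, 15 were larger than their spot error, and 3 reached 2-fold, 1 of them upward and 2 downward. Of all 26616 probes with a difference 3.9% were that far apart, 1.39% higher and 2.51% lower. The median over all these probes was itself above 0, at 0.05. Of the 18693 genes with a difference, 53.4% lay within 0.2 of 0, about the usual spot error. The share of all probes beyond their own spot error was not counted, so the 15 are not read as a result about the members. With each gene at its brightest probe, 5 of the 8 members were higher and 3 lower, and 2 reached 2-fold, Slc6a12 upward and Slc6a6 downward. Of the 18693 genes 4.38% did, 1.5% upward and 2.88% downward. The median over the members was 0.11, beside 0.05 over all genes. Averaging each gene's probes gave a median of 0.34, since the brightest probes of Nfat5 and Slc14a2 are those with the smallest differences of their genes. These counts describe members that were picked by name with earlier results of these data known, and nothing is called particular to them.

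**Figure D3:**
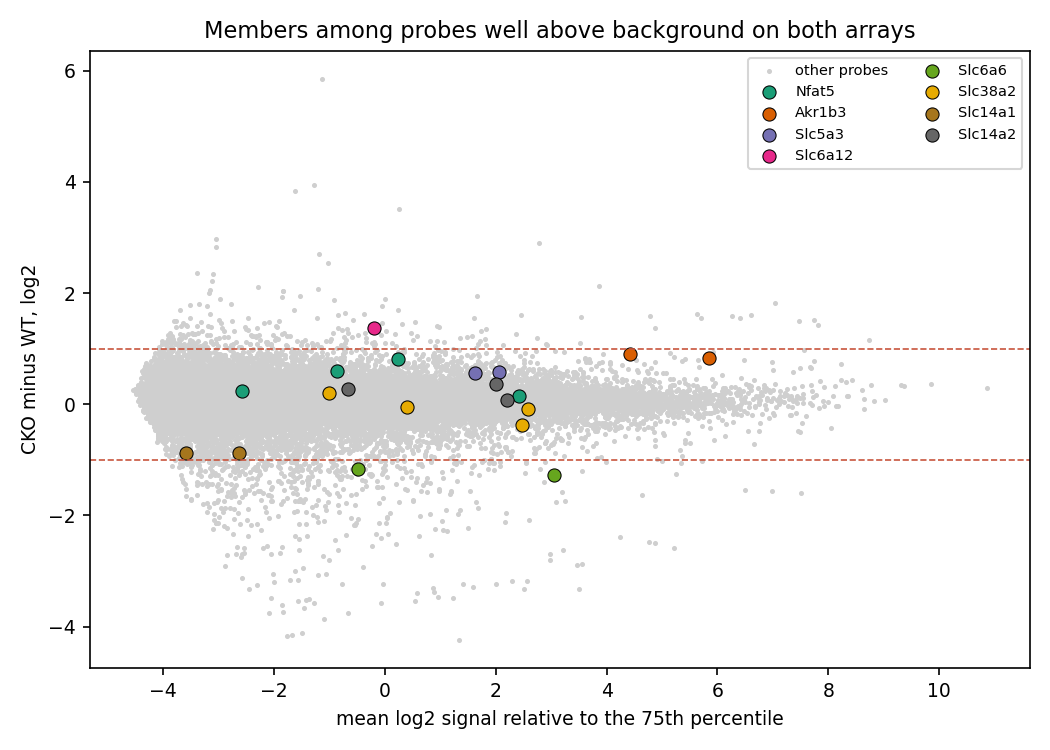
Difference CKO minus WT (vertical axis, log2) against the mean level (horizontal axis, log2 relative to the 75th percentile) for probes well above background on both arrays, with the members coloured and dashed lines at 2-fold. Akr1b3 and the bright Slc6a6 probe lie in a range of signal where the cloud of other probes is narrow, while Slc14a1 lies among dim probes where it is wide.

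Gata2 lies on chromosome 6, and so do 3 of the members. Slc6a6 is 3.55 Mb from the Gata2 probes, Slc6a12 33.2 Mb and Akr1b3 53.9 Mb, the last on the other side. Within 10 Mb of Gata2, 11 of the 227 probes with a difference, or 4.85%, were at least 2-fold apart, beside 4.35% on the rest of the chromosome and 3.87% on the other chromosomes. The shares that were lower, as Slc6a6 was, were 3.52%, 2.52% and 2.5%. The share within 10 Mb was 1.8% with normexp and 7.6% with no filter on dim probes. In the 1 Mb on either side of Slc6a6, the other 21 probes with a difference lay between −0.43 and 0.28, with a median of −0.05. None was counted at 2-fold, bounds included. Prickle2, at the −0.43 end, passed background in WT alone, with signals of 19.5 and 2.55, and was at least that much lower. A probe with no gene name at −0.13 was a bound too. The null and floxed alleles were introduced at Gata2, and the part of linked chromosome in the difference of Slc6a6 was not tested.

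**Figure D4:**
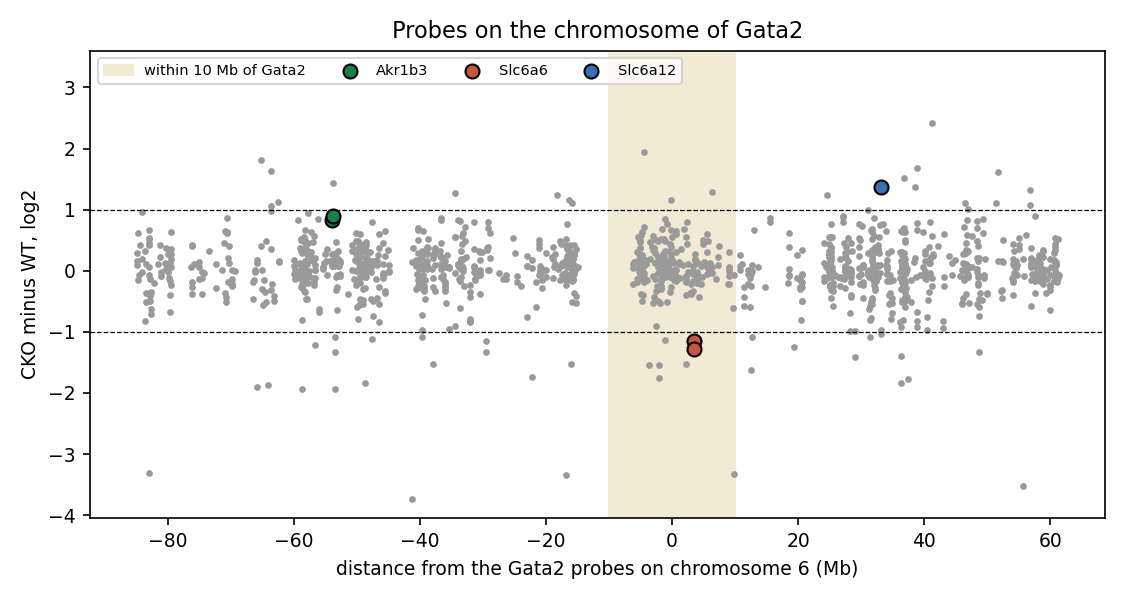
Difference CKO minus WT (vertical axis, log2) of probes on chromosome 6 against their distance in Mb from the Gata2 probes (horizontal axis), with the 10 Mb on either side shaded and dashed lines at 2-fold. Slc6a6 lies inside the shaded range below the lower line, and Slc6a12 and Akr1b3 lie outside it.

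Of 73 other genes of osmolyte and urea handling, in 6 lists, 62 had a difference, 31 of them higher and 31 lower, with a median of 0.00. At least 2-fold apart were 4, or 6.45%, beside 4.38% of all genes. They were Slc12a2, the sodium, potassium and chloride cotransporter that takes up salt when cells shrink, at 1.89 ± 0.21, the inducible heat shock genes Hspa1b at −1.63 ± 0.20 and Hspa1a at −1.56 ± 0.20, and Slc6a13, a carrier of GABA that also takes taurine, at −1.04 ± 0.27. Slc6a13 was dim and at −0.25 with normexp. Hspa1a and Hspa1b have nearly the same sequence, so the same signal may be counted for both. The share is therefore not read as above that of all genes.

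The osmotic stress list held most of these. Of its 16 genes, 9 were higher and 7 lower, with a median of 0.11. Hspa1a and Hspa1b encode HSP70, which NFAT5 induces in hypertonic cells and which heat induces as well, and each was lower by both of its probes. The sequences of these neighbouring copies are nearly the same, so their signals cannot be told apart. Sgk1, a kinase induced by aldosterone and by hypertonicity, was at −0.98 ± 0.20, and had signals of 13236 and 5338 on the WT and CKO arrays. Hspa8, the constitutive HSP70 relative, was at −0.64 ± 0.20. The other osmotic genes, among them Hspa4l at 0.10, Cryab at 0.14 and S100a4 at 0.26, lay between −0.24 and 0.34.

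Among enzymes that make or break down osmolytes, 7 of 14 were higher, 7 lower and 0 at 2-fold, with a median of −0.01. For inositol, Impa1, a phosphatase that releases it, was at 0.35 and Isyna1, which makes its precursor, at 0.33, each ± 0.20 and both in the direction of Slc5a3, while Miox, which breaks inositol down, was at −0.23. For taurine, Csad, which decarboxylates cysteine sulfinate, was at 0.40, and Cdo1, which makes that substrate, at −0.33, and neither was near the fall of Slc6a6. For sorbitol, Sord, which oxidises it, was at −0.27 while Akr1b3 was at 0.84. Chdh, which makes betaine from choline, was at 0.32, or 0.92 at another of its probes.

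The other carriers had 5 higher and 7 lower of 12, with a median of −0.08. Slc38a3, a glutamine carrier, was dim and at 0.78 ± 0.37, or 0.33 with normexp, and Slc5a11, the other sodium-dependent inositol carrier, passed background in WT alone and was at least 1.55-fold lower. Slc36a1, which carries small neutral amino acids, was at −0.24. Regulators of NFAT5 such as the p38 kinase gene Mapk14 at −0.10, Fyn at −0.04, Parp1 at −0.17 and Map2k3 at 0.18 stayed within 0.18 of 0, with a median of −0.01 over 12.

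Of the LRRC8 subunits of the volume-regulated anion channel, which lets taurine and other osmolytes out of swollen cells, 4 of 5 were measured. Lrrc8a, the obligatory subunit, was at −0.06 ± 0.20. The partner subunits Lrrc8d, Lrrc8b and Lrrc8e were at 0.69 ± 0.20, 0.58 ± 0.29 and 0.30 ± 0.21. With the spike-in transcripts set equal the median of this list turned from 0.44 to −0.10, and that of the osmotic stress list from 0.11 to −0.43. Lrrc8d is the partner best known for passing taurine. Of the urea cycle genes and the aquaporins that also pass urea or glycerol, Arg2, the mitochondrial arginase that releases urea, was at −0.87 ± 0.21, though −0.55 with normexp, and Aqp3 at −0.43 ± 0.20. Ass1 and Asl were at 0.15 and 0.14, and the other five of that list, Arg1, Cps1, Otc, Aqp7 and Aqp9, had no difference because they were well above background on neither array.

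**Figure D5:**
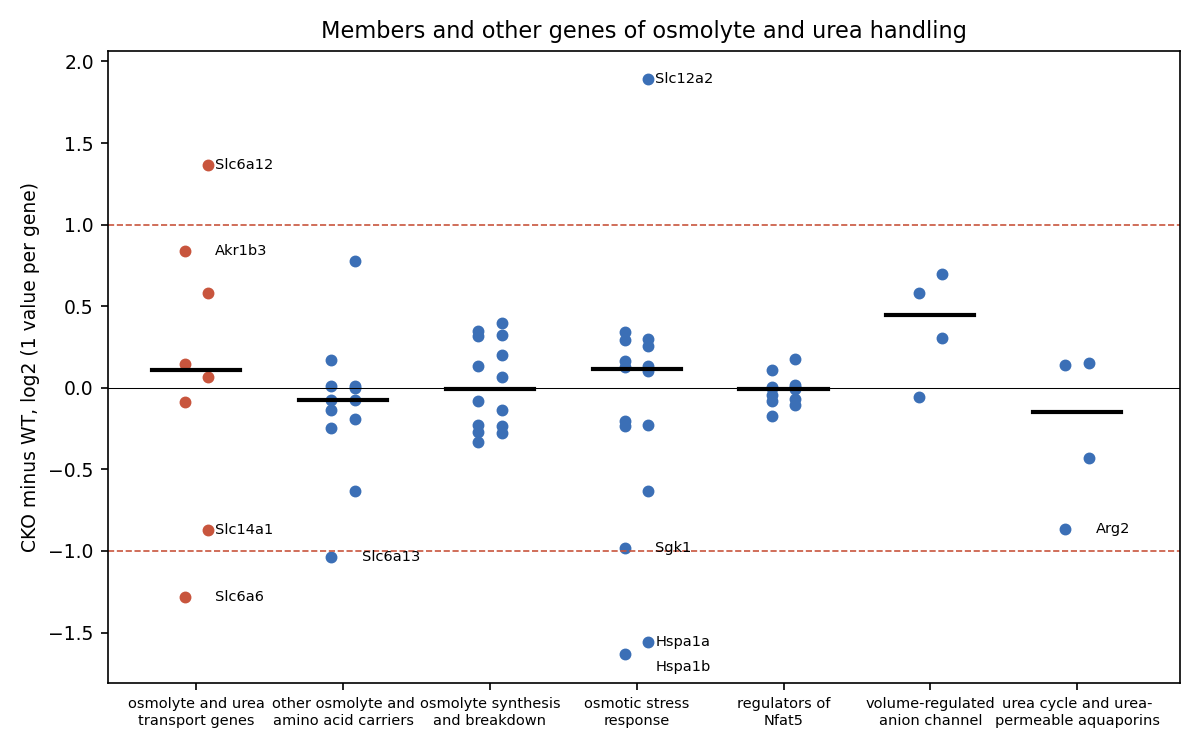
Difference CKO minus WT (vertical axis, log2), 1 point per gene at its brightest probe, for the 8 osmolyte and urea transport genes and the 6 lists of related genes (horizontal axis), with bars at the medians and dashed lines at 2-fold. Genes 0.8 or more from 0 are named; medians lie between −0.15 and 0.44.

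In purified cells measured in bulk, fewer cells of a type and less RNA per cell cannot be told apart, so the marker lists are given beside the members. The 10 principal cell markers had a median of −0.34, with 8 lower, and their summed level, in units of the 75th percentile, was 982 in WT and 837 in CKO. The 9 intercalated cell markers were all higher (8 of 9 with the spike-in transcripts set equal), between 0.53 and 1.94 (Atp6v1b1), with a median of 0.90 and summed levels of 153 and 267. The thick ascending limb list had a median of 0.39 over 7, with Umod at 0.39 (−0.15 for both with the spike-in transcripts set equal), and summed levels of 67.6 and 72.8. Of the 8 thin limb and proximal tubule markers 6 were lower, with Slc4a4 at −3.12, Lrp2 at −1.58 and Aqp1 at 0.72. Slc4a4 was dim in CKO, at a signal of 14.3, and was at −1.24 with normexp. Its 3 probes ran from −3.12 to −0.45, and the 4 of Lrp2 from −1.58 to −0.26. The median of this list was −0.40, or −0.18 with normexp, and its summed levels were 8.38 and 6.37. The distal convoluted tubule list had a median of −0.30 over 5, with Slc12a3 at −0.78 and summed levels of 193.7 and 413, most of the latter Klk1. The differences of Slc6a12, of both Akr1b3 and both Slc5a3 probes and of 2 of the 4 Nfat5 probes lie inside the range of the intercalated cell markers. All of them also lie inside that of the distal convoluted tubule list, −1.40 to 1.51. All but Slc6a12 lie inside that of the thick ascending limb list, −0.30 to 0.98. Dim markers set the 0.98 end (Cldn16) and the −1.40 end (Pvalb), and with normexp these were at 0.57 and −0.21. The highest of the thick ascending limb list was then Cldn10, at 0.67. Both Akr1b3 probes (0.83 and 0.78) and the Nfat5 probe with the largest difference (0.69) were above it in that setting. Both Slc5a3 probes and the Nfat5 probe at 0.60 also lie inside the range of the principal cell markers, −0.70 to 0.62. The same probes lie inside that of the thin limb and proximal tubule list, −3.12 to 0.72. The part of a changed mixture of tubule cells in the differences of the members was not tested.

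Markers of cells outside the tubule were mostly lower, as Slc6a6 and Slc14a1 were. So were most markers of the principal cell list and of the thin limb and proximal tubule list above. The 9 macrophage and dendritic cell markers were all lower, with a median of −0.86, Cd68 at −0.56 and summed levels of 144 and 76.7. Of the markers of fibroblasts, pericytes and smooth muscle 6 of 7 were lower, with a median of −0.90 and Pdgfrb at −1.47, or −0.53 and −0.60 with normexp. Their summed levels were 23.8 and 20.8, most of both from Acta2, which was at 0.05. Their part in the difference of Slc6a6, a gene that many cell types express, was not tested.

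Slc14a1 is a gene of vasa recta endothelium, red blood cells and urothelium, and their markers are given beside it. All 9 endothelial markers were lower, with a median of −0.34 and summed levels of 1.95 and 1.16, Pecam1 passing background in WT alone. With normexp 4 of the 7 endothelial markers with a difference were higher and the median was 0.08. Of the red blood cell markers Hbb-b1 and Hba-a1 were at −1.52 and −1.30, with summed levels of 2.16 and 0.803, and Alas2 and Epb4.2 were well above background on neither array. Of the urothelial markers 3 of 5 were lower, with a median of −0.67, or −0.29 with normexp, and summed levels of 1.27 and 0.867. Krt15 was at −1.87 and Upk1a at 0.76, which normexp made −0.64 and 0.43, and Upk1b, Upk2 and Upk3a were well above background on neither array. Their part in the difference of Slc14a1 was not tested.

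Of the members, Nfat5, Slc38a2, Slc5a3 and Slc6a12 were found in the RefSeq table of promoters (GRCm38.p6), with 1, 1, 1 and 5 windows from 250 bases before to 50 bases after a transcript start. They were searched on both strands for TGGAAA, the core of the NFAT5 binding element, and for the GATA words AGATAA and TGATAA. Because Slc6a12 rose most and BGT1 is the classic NFAT5 target, its matches are shown with the word in capitals.
Slc6a12, NFAT5 core 75 bases before the first start: gcaggtacttggTGGAAAactccagtctgt
Slc6a12, GATA word 219 bases before the same start: gctgggagaccaTGATAAgggtctgggtgg
Slc6a12, GATA word on the opposite strand, 113 bases before a later start: cgcgcagtctggTTATCAtagcctctgtac
The last match lies in the windows of a pair of overlapping starts and is 1 place in the genome. The windows of Nfat5, Slc38a2 and Slc5a3 held neither word. Of all 32851 windows in the table, 21.4% hold the NFAT5 core and 18.6% a GATA word, so such matches are common, and they describe letters and not binding.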

How the data were processed

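The deposited files hold spot intensity on a linear scale for 2 arrays, 1 per genotype, with 43379 spots each that are not controls. Per the file headers, the authors extracted the intensities with Agilent Feature Extraction 10.7.3.1, with background subtraction and detrending, and probes are placed on mm9. How the authors normalized between arrays: not given in the sources used here. Outlier-flagged spots (66 on the WT array, 73 on the CKO array) were left out. Values were log2 processed signals less the log2 of the array's 75th percentile, with spots of a probe averaged. A gene took its brightest probe, leaving out probes that were well above background on neither array. A probe well above background on 1 array only gives a bound, against the dimmest detected signal or its own, whichever is higher, and is written "at least" where it is named; counts, medians and ranges include bounds. The precision is limited by the number of arrays, and the intensities alone give no depth. The members and gene lists were chosen with earlier results of these data known. Genes named outside the members were those at least 2-fold apart in a list, then the largest differences, and the first marker of each marker list; others in the text were chosen after their values were seen. One marker gene of a list is not reported here. Only the scaling and the 2-fold call were tried on simulated data, with known changes past 2-fold set on bright WT levels. The background filter, the bounds, the choice of probe and the alternatives were not tried in that way. Alternatives were normexp (offset 50), quantile normalization, cyclic loess, other scaling points, other filters on dim probes, keeping flagged spots and the mean of a gene's probes. Tools were limma 3.58.1 (R 4.3.3), and numpy 2.4.6, matplotlib 3.10.9 and pandas 2.3.3 (Python 3.11.15).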

Additional observations from a re-analysis of the deposited data

How the results depend on the processing

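No paired analysis was possible because each genotype has 1 array. Of the 20 member probe differences, all stayed within their spot error of the main value with cyclic loess and quantile normalization. They did so too with a median in place of the 75th percentile and with flagged spots kept. Each of these shifts every member probe by the same amount and is no check. Both other filters on dim probes could change no member difference, since all 20 probes were well above background on both arrays. With normexp 4 moved by more than their spot error, those of Slc6a12, both Slc14a1 probes and the dimmer Slc6a6 probe, and 0 changed sign. Setting 8 spike-in control probes equal lowered the median of all genes by 0.54, from 0.05 to −0.50. On that scale 6 member probes changed sign, 3 of them larger than their spot error in the main setting, the median over the members was −0.44, the median over the pathway genes −0.54, and 7 pathway genes were at least 2-fold lower, against 3. Members past 2-fold were then Slc6a6 and Slc14a1 (−1.41), with Slc6a12 at 0.82. Relative to the median of all genes on that scale, Slc6a12 was at 1.32 and the Slc6a6 probes at −1.20 and −1.33. Spike-in scaling shifts every probe by the same amount, so these values restate the main ones less the median and are no check. Averaging a gene's probes gave a median over the members of 0.34. The share of probes within 10 Mb of Gata2 at least 2-fold apart was 1.8% with normexp and 7.6% with no filter on dim probes. The cause of these shifts was not tested. Dim signal limits Slc14a1 most, as the normexp values show.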

Other observations

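Slc6a12 and Akr1b3 have relatives close by on the chromosome. Slc6a13, whose nearest probe lies 27.9 kb from that of Slc6a12, was lower at both probes, at −1.04 and −0.98 (signals of 55.4 and 40.5 in WT, 21.5 and 16.4 in CKO), while Slc6a12 was at 1.36. Near Akr1b3, the aldo-keto reductase genes Akr1b8 and Akr1b10 lie 62.5 and 90.9 kb from the middle of its probes, and were bright and within their spot error of 0, at 0.17 and 0.10, both ± 0.20. Akr1b7, at 117 kb and named after its value was seen, passed background in CKO alone and was at least 2.72-fold higher, with dim signals of 9.44 and 26.1. Within 1 Mb of Akr1b3, 4 of 34 measured probes were at least 2-fold apart, beside 3.9% of all probes, including Cald1 at −1.94 and −1.08. Within 1 Mb of Slc5a3 and of Slc6a12, 1 of 42 and 1 of 31 were, Runx1 at −1.07 and Slc6a13. For Nfat5, Slc38a2, Slc6a6, Slc14a1 and Slc14a2 it was 0 of 40, 0 of 19, 0 of 21, 0 of 20 and 0 of 18. These are values of 1 array per genotype with no test.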
